A study of Homo sapiens with 5 samples.

Results

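The regions described here are the places in the genome of Flp-In HEK293 T-REx cells where peaks of ASXL1, FOXK1 and O-GlcNAc overlapped. They were found by chromatin immunoprecipitation with sequencing (ChIP-seq), a method in which an antibody recovers the DNA its target sits on and a peak marks a place where sequenced fragments pile up. Peaks of the 3 deposited lists on chromosomes 1 to 22 and X were pooled, and peaks that overlapped by at least 1 bp were merged into regions. Of 159864 merged regions, 6231 (3.90%) contained a peak of every list. The regions were thus chosen by the peak calls, which rest on the scores, so their number, scores and widths are descriptions and none of them is tested.

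ASXL1 is a chromatin protein that binds and stimulates BAP1, the enzyme that removes ubiquitin from histone H2A. Both form the core of a complex known as the Polycomb repressive deubiquitinase, and proteins found with that complex include the forkhead factors FOXK1 and FOXK2 and the transferase OGT. FOXK1 binds DNA through its forkhead domain and is known as a regulator of autophagy and glucose metabolism genes. OGT attaches O-GlcNAc, a single sugar, to many proteins of the nucleus and cytoplasm. An antibody against O-GlcNAc therefore reports the sugar on whatever protein carries it, whereas the other antibodies each report 1 protein.

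Flp-In HEK293 T-REx is a human embryonic kidney line that carries a recombination site for transgenes and a tetracycline repressor. No treatment or transgene is named in the labels. Chromatin preparation 63 was the source for the antibodies against ASXL1 and O-GlcNAc, and preparation 62 was that for FOXK1. Input chromatin of each preparation was not analysed here. Each antibody had 1 library, so no value below has a replicate error and FOXK1 cannot be told apart from its preparation. The peak lists held 94093 ASXL1, 21481 FOXK1 and 78700 O-GlcNAc peaks on these chromosomes. Sequencing depth is unknown. Scores are those of the authors' peak caller. Whether a score means the same in different lists is not given in the sources used here, so no list is called stronger than another from its scores, and a fixed cut such as 100 need not be equally strict in each list.

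Regions held by all 3 lists took up unequal shares of the lists. They contained 6394 FOXK1 peaks (29.8% of that list, 95% Wilson interval 29.2 to 30.4). They contained 7110 O-GlcNAc peaks (9.03%, interval 8.84 to 9.24) and 7053 ASXL1 peaks (7.50%, interval 7.33 to 7.67). Measured in covered bases the shares were higher, with FOXK1 at 41.3%, O-GlcNAc at 16.1% and ASXL1 at 12.7%. The FOXK1 list is the shortest, and since a shared region mostly holds 1 peak of each list, the shares of peaks follow list length by construction. Lists cut to equal length, the 10000 strongest peaks of each, therefore gave near-equal shares (ASXL1 18.6%, FOXK1 18.1%, O-GlcNAc 18.7%), which is no separate result. These intervals, like all others given here, cover counting error only.

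Each pair of targets was then read for how often the remaining one was present. FOXK1 was present in 31.5% of the 19803 regions that held both ASXL1 and O-GlcNAc (interval 30.8 to 32.1). O-GlcNAc was present in 69.2% of the 9005 regions with ASXL1 and FOXK1 (interval 68.2 to 70.1). ASXL1 was present in 76.6% of the 8134 regions with FOXK1 and O-GlcNAc (interval 75.7 to 77.5). The 31.5% also serves as the background for the FOXK1 shares given below.

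Most of the shared regions had a simple make-up. The median region was 863 bp wide (quartiles 637 and 1194 bp, range 230 to 9963 bp), the widest median of the 7 kinds of region. The median was 711 bp for ASXL1 with O-GlcNAc, 554 bp for ASXL1 with FOXK1 and 482 bp for FOXK1 with O-GlcNAc, and 384 bp or less for regions of 1 list. A merged region is at least as wide as its widest peak. In 4878 regions (78.3%, interval 77.2 to 79.3) there was exactly 1 peak of each list. FOXK1 was nearly always a single peak, in 97.6% of regions, against 87.6% for ASXL1 and 87.2% for O-GlcNAc. The most divided region held 7 O-GlcNAc peaks, and the maxima for ASXL1 and FOXK1 were 4 and 5.

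The 3 peaks usually lay on the same bases. In 6041 regions (97.0%) at least 1 base was covered by all 3 targets, and the stretch common to them had a median of 441 bp (quartiles 273 and 664 bp). This was a median of 52.5% of the region. The remaining 190 regions (3.05%) were joined only through chains of overlaps, with no base under peaks of all 3.

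Peak centres of different targets were close. The median distance between the centres of the highest-scoring peaks was 85.5 bp for ASXL1 and FOXK1 (interval of the median 83 to 88.5). It was 83 bp for ASXL1 and O-GlcNAc (80 to 85) and 79.5 bp for FOXK1 and O-GlcNAc (77 to 82.5). These distances are smaller than the average chromatin fragments of 150 to 400 bp that the labels report after sonication. Overlap was required of these regions, so peak widths limit the distances, and an effect of the preparation was not tested. Within that limit FOXK1, from the other preparation, was about as near to each of the other centres as these were to one another.

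**Figure D1:**
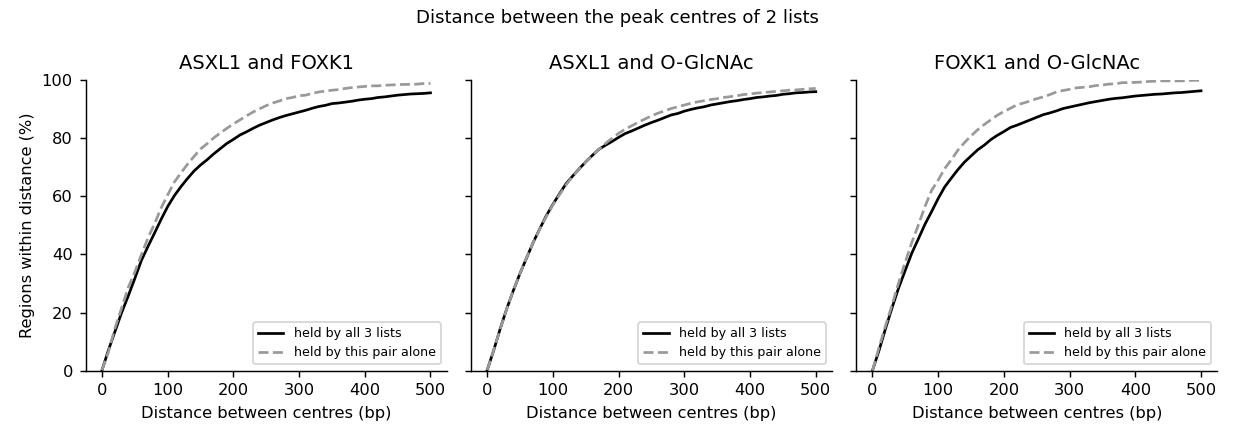
Share of regions (vertical axis, percent) whose peak centres of 2 lists lie within the distance on the horizontal axis (bp), for regions held by all 3 lists (solid line) and by the named pair alone (dashed line). The lines nearly coincide for ASXL1 and O-GlcNAc up to about the median of 83 bp, and beyond the shortest distances the dashed line runs above the solid one for both pairs with FOXK1.

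Regions that held only a pair of targets had similar or shorter distances. The median was 83.2 bp for ASXL1 and O-GlcNAc without FOXK1, 79 bp for ASXL1 and FOXK1 without O-GlcNAc, and 69.5 bp for FOXK1 and O-GlcNAc without ASXL1. Peak width moved with these values, since the ASXL1 peak had a median width of 611 bp in regions of all 3 and 344 bp in regions of ASXL1 and FOXK1 alone. Centres more than 500 bp apart were found in 4.51% of the shared regions for ASXL1 and FOXK1. Among shared regions with 1 peak of each list that share was 1.31%.

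No target had a fixed place among the centres. The ASXL1 centre lay between the other centres in 32.2% of regions, the FOXK1 centre in 33.0% and the O-GlcNAc centre in 34.3%. The widths were less even. FOXK1 had the widest peak in 54.1% of regions, ASXL1 in 33.0% and O-GlcNAc in 12.7%. The O-GlcNAc peak lay wholly inside the FOXK1 peak in 46.4% of regions and inside the ASXL1 peak in 35.9%, while a FOXK1 peak lay inside an O-GlcNAc peak in 8.83%.

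Scores of the shared regions covered nearly the whole range of each list. ASXL1 scores ran from 50.01 to 3233.06 with a median of 336 (quartiles 135 and 879). O-GlcNAc scores ran from 50.01 to 3228.29 with a median of 165 (quartiles 88.5 and 427). FOXK1 scores ran from 50 to 3100 with a median of 118 (quartiles 75.7 and 211). The value 3100 recurs at the top of the lists, and 150 shared regions had exactly that ASXL1 score, so these have no order among themselves, and 21 shared regions scored higher.

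In each list the shared regions had the highest median score of any kind of region. For ASXL1 the median was 269 in regions with O-GlcNAc but no FOXK1, 93.1 with FOXK1 but no O-GlcNAc, and 67.6 for ASXL1 alone. For O-GlcNAc it was 111 with ASXL1 alone as partner, 74.3 with FOXK1 alone as partner and 62.7 without either. FOXK1 medians were 85.0 with ASXL1, 78.1 with O-GlcNAc and 64.7 without either. The ASXL1 quartiles overlapped widely between regions of all 3 (135 to 879) and regions of ASXL1 and O-GlcNAc (92.8 to 720).

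**Figure D2:**
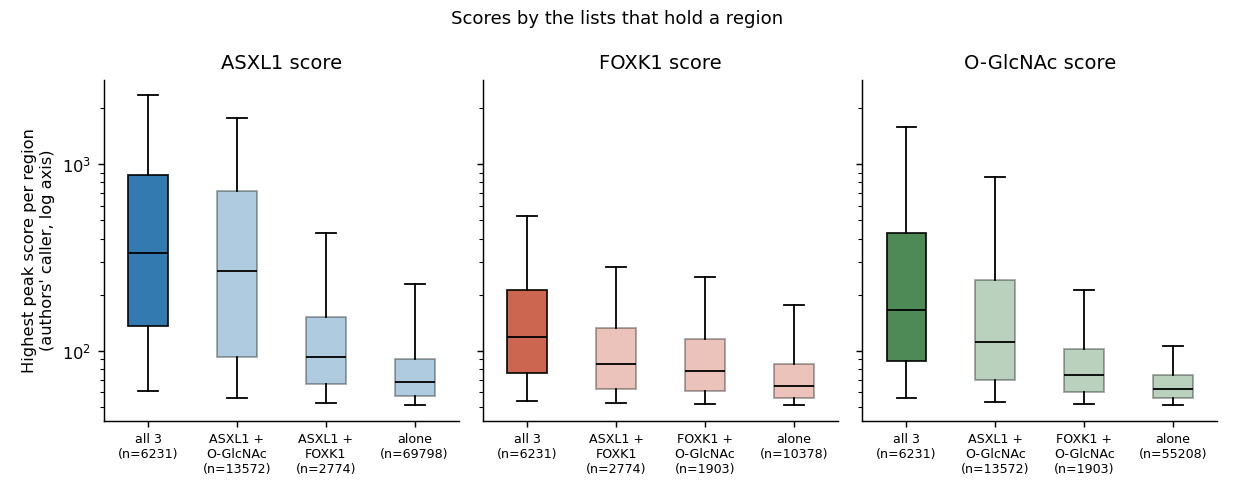
Highest peak score per region (log axis) for each list, by the lists that hold the region. Boxes give quartiles and the median, whiskers the 5th and 95th percentiles, and n counts regions. The darker box of regions held by all 3 lists has the highest median in each panel, with ASXL1 at 336, FOXK1 at 118 and O-GlcNAc at 165.

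Read from the peaks, a higher score went with a higher chance of lying in a shared region. Each list was divided into 10 equal classes by score. For FOXK1, 68.3% of peaks in class 10 (interval 66.3 to 70.3) and 12.3% in class 1 lay in shared regions. O-GlcNAc had 38.1% in class 10 and 2.55% in class 1, and ASXL1 had 29.6% and 1.60%. The low classes of ASXL1 and O-GlcNAc were flat. Up to the fourth class, ASXL1 stayed between 1.60% and 1.81% and O-GlcNAc between 2.54% and 2.96%.

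The strength of the FOXK1 peak also went with the presence of the other targets. Where FOXK1 and O-GlcNAc were both present, ASXL1 was found in 61.5% of regions in the lowest of 10 FOXK1 score classes (interval 58.2 to 64.8) and in 93.9% in the highest (92.0 to 95.3). Where FOXK1 and ASXL1 were both present, O-GlcNAc went from 54.7% (51.5 to 57.9) to 88.2% (86.0 to 90.2). Both series of 10 values had no step down from one class to the next. The scores of FOXK1 belong to the peaks that chose the regions, so this too is a description.

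The reverse question, how often FOXK1 was present given the strength of the others, had a less simple answer. In 10 classes of ASXL1 score, FOXK1 was present in 19.4% of ASXL1 and O-GlcNAc regions in the lowest class (interval 17.8 to 21.2). The share was 37.9% in class 4 (35.8 to 40.1), between 31.1% and 32.0% in classes 6 to 9, and 41.9% in class 10 (39.7 to 44.1). The peak at class 4, where ASXL1 scores lie between 125.98 and 188.3, stood outside the intervals of the classes from 6 to 9. Shorter lists gave other values, in 10 classes that were drawn anew and cover other scores, so that a class number does not mean the same there. When every score had to be at least 100, class 1 was at 24.9%, class 4 at 23.1%, class 7 at 21.7% and class 10 at 33.1%. With each list cut to its 10000 strongest peaks, these classes were at 28.8%, 27.7%, 27.0% and 40.9%. In classes of O-GlcNAc score the share was 20.4% in the lowest (18.7 to 22.3), 37.0% in class 9 (34.9 to 39.2) and 51.7% in class 10 (49.5 to 53.9).

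**Figure D3:**
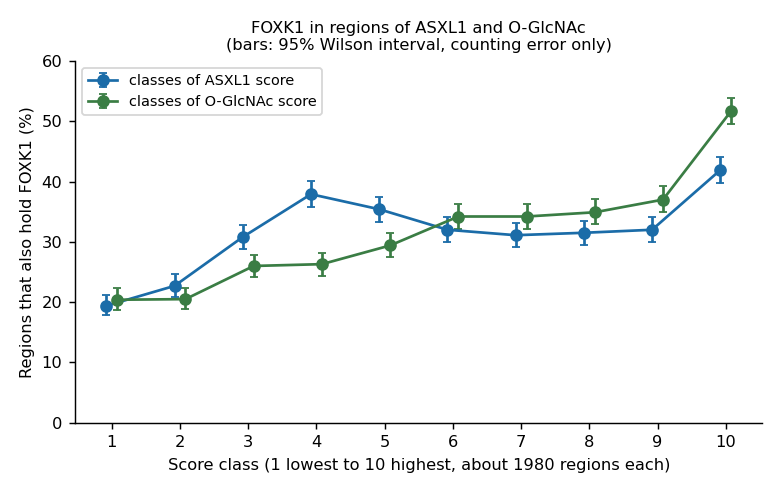
Share of regions held by ASXL1 and O-GlcNAc that also hold FOXK1 (vertical axis, percent) in 10 classes of the ASXL1 score and of the O-GlcNAc score (horizontal axis). Bars are 95% Wilson intervals. The ASXL1 line has a first high point of 37.9% at class 4, and both lines are highest at class 10, with 41.9% for ASXL1 and 51.7% for O-GlcNAc.

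The scores were then crossed, in 5 classes each. At every level of ASXL1, the FOXK1 share was higher in class 4 of O-GlcNAc score than in class 1. Within the top class of ASXL1 it was 20.3% at the lowest O-GlcNAc class (interval 14.3 to 28.1) and 44.2% at the highest (42.0 to 46.3). Within the lowest ASXL1 class it was 15.5% (13.8 to 17.4) at the lowest O-GlcNAc class and 33.6% (27.9 to 39.8) at class 4. At class 5 it was 50% of only 50 regions (36.6 to 63.4). The step from class 4 to class 5 of O-GlcNAc went down in ASXL1 class 2, from 44.9% to 32.0% of 178 regions. At fixed O-GlcNAc there was no such order. In the lowest O-GlcNAc class, the FOXK1 share was 26.5% in class 2 of ASXL1 and 20.3% in class 5. In O-GlcNAc class 4 the interval was 40.6 to 49.3 in class 2 of ASXL1 and 29.3 to 34.8 in class 5.

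**Figure D4:**
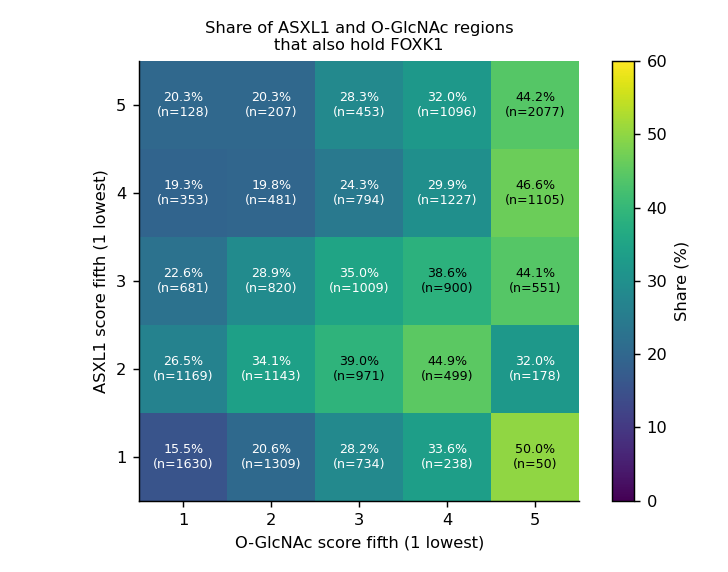
Share of ASXL1 and O-GlcNAc regions that also hold FOXK1 (color and percent in each cell), by 5 classes of O-GlcNAc score (horizontal) and 5 classes of ASXL1 score (vertical), with n regions in each cell. The share is 15.5% where both scores are lowest and 44.2% where both are highest, and within ASXL1 class 5 it goes from 20.3% to 44.2% along O-GlcNAc. The highest share, 50% of 50 regions, is at ASXL1 class 1 and O-GlcNAc class 5.

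Width of the ASXL1 peak moved with this pattern. FOXK1 was present in 24.0% of the narrowest of 5 width classes (99 to 319 bp), 37.1% of the next (319 to 508 bp) and 29.9% of the widest (1019 to 11828 bp). Its part in the pattern of scores was not tested.

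Among the shared regions themselves, ASXL1 and O-GlcNAc scores went together and FOXK1 scores hardly followed either. Across the 6231 regions Spearman's rho was 0.621 for ASXL1 and O-GlcNAc, 0.168 for FOXK1 and O-GlcNAc, and 0.147 for ASXL1 and FOXK1. Regions held by a pair alone had similar values, so the pattern is not particular to the shared regions. They were 0.580 for ASXL1 and O-GlcNAc, 0.138 for FOXK1 and O-GlcNAc, and 0.167 for ASXL1 and FOXK1. These are descriptions over regions that share their libraries. The ASXL1 and O-GlcNAc libraries also share chromatin and input. Where every score was at least 100, which left 2534 regions, the values were 0.504, 0.0585 and 0.00607. With each list cut to its 10000 strongest peaks, rho for ASXL1 and O-GlcNAc was 0.225.

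The same was seen by dividing the shared regions into 3 equal groups by each score. Of the 2077 regions in the top group for O-GlcNAc, 65.9% were also in the top group for ASXL1 and 40.0% in that for FOXK1. Each group held 2077 of the 6231 regions.

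The 10 regions with the best worst rank over the 3 lists are those that ranked high in every list. First was chr6:33239168-33240769 (hg19), 1602 bp wide, where ASXL1 scored 3100, FOXK1 844.17 and O-GlcNAc 2473.22. Its peaks had 851 bp in common, and the FOXK1 and O-GlcNAc centres lay 25 and 52.5 bp from that of ASXL1. Next were chr8:33370332-33371628, with scores of 3100, 948.50 and 2353.59 in the same order, and chr15:74753090-74754541, with 3100, 824.83 and 2418.99. At chr6:49430501-49431460 the scores were 3082.78, 956.35 and 2139.28, and the O-GlcNAc centre lay 6 bp from the ASXL1 centre.

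The next 3 of these regions were not at the ASXL1 score of 3100. At chr19:44668422-44670701 the scores were 2799.92, 622.27 and 2116.79. At chr1:205090827-205092112 they were 2686.11, 897.93 and 1846.20. At chr12:124117776-124118739, which is 964 bp wide with 755 bp in common, they were 3169.71, 505.90 and 3100, and both other centres were within 12.5 bp of the ASXL1 centre. The last 3 were chr6:31632364-31634204, chr12:120729101-120731384 and chr6:99872457-99874141, all with an ASXL1 score of 3100 and FOXK1 scores of 450.77, 608.52 and 412.44. Chromosome 6 gave 4 of these 10, and 580 of all 6231 shared regions.

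Other regions ranked high among the 6231 in 1 list and low in the other lists, though each held a called peak of all 3. The strongest lean to ASXL1, by ranks within each list, was at chr19:42375303-42379408, where ASXL1 scored 3100, FOXK1 50.30 (rank 6208) and O-GlcNAc 55.51 (rank 5949). No base there was covered by all 3, and the FOXK1 and O-GlcNAc centres lay 770 and 1748 bp from the ASXL1 centre. The other 2 were chr1:35643727-35647228 (3100, 50.82 and 64.70) and chr1:173829843-173832781 (3100, 57.33 and 56.81). All 3 were wide, from 2939 to 4106 bp, and in each the FOXK1 and O-GlcNAc centres lay 722 bp or more from that of ASXL1.

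Regions that leaned to FOXK1 were narrower, from 658 to 736 bp, and their FOXK1 centres lay within 46.5 bp of the ASXL1 centres. At chr22:17738875-17739605 FOXK1 scored 1181.14 (rank 39), ASXL1 60.28 (rank 5955) and O-GlcNAc 53.04 (rank 6066), with the FOXK1 and O-GlcNAc centres 29.5 and 74 bp from that of ASXL1. At chr10:112562231-112562888 FOXK1 scored 749.86, ASXL1 79.15 and O-GlcNAc 52.88, with these distances at 5 and 50.5 bp. At chr12:95226578-95227313 the scores were 377.67, 65.47 and 57.80, with a distance of 46.5 bp for FOXK1 and one above the median of 83 bp for O-GlcNAc. For O-GlcNAc the strongest leans were chr17:17653050-17653844 (O-GlcNAc 1524.60 at rank 335, ASXL1 75.80 at rank 5614 and FOXK1 50.54 at rank 6193), chr19:54480633-54482127 (1490.25, 90.22 and 50.37) and chr13:113950880-113951926 (1253.28, 62.04 and 62.50).

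The widest regions were broad ASXL1 peaks. At chr19:5689762-5699724 (9963 bp) ASXL1 scored 3100, FOXK1 61.91 and O-GlcNAc 588.89. At chr15:75187584-75195735 (8152 bp) they were 3100, 55.20 and 119.94. At chrX:73033941-73041658 (7718 bp), 1 ASXL1 peak spanned 3 FOXK1 and 4 O-GlcNAc peaks, with scores of 3100, 822.83 and 117.42.

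At the edge of the rule were regions in which at least 1 target had a score near the lowest listed value of 50. In 1302 regions (20.9%) at least 1 score was under 60, and in 2534 (40.7%) all 3 were at least 100. Just inside were chr21:36245191-36245790, with a FOXK1 score of 50, chr1:24372564-24373397, with an O-GlcNAc score of 50.01, and chr8:125056783-125057256, with an ASXL1 score of 50.01. Just outside, the 3 regions of exactly 2 targets with the highest summed percentile ranks of score all lacked FOXK1. They were chr1:236957689-236959764 (3180.75 for ASXL1 and 2645.58 for O-GlcNAc), chr19:36979776-36981420 (3100 and 2997.23) and chr19:37177274-37179096 (3100 and 2580.51). Lacking FOXK1 was the usual case, since 13572 regions of exactly 2 targets lacked it, while 2774 lacked O-GlcNAc and 1903 lacked ASXL1.

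Shared regions were spread over all 23 chromosomes but not evenly. Chromosome 1 held 729, chromosome 6 held 580 and chromosome 5 held 435, while chromosomes 21 and 18 held 61 and 87. Per Mb, chromosome 19 had the most (4.79), followed by 17 (3.68) and 6 (3.39), and X had the fewest (1.08). Against 100 protein-coding genes of the same chromosome in RefSeq, the order was different. Chromosome 6 had 55.3 shared regions, 5 had 48.1 and 10 had 47.0, while chromosome 19 had 19.5 and chromosome 11 had 18.5. Of the 580 on chromosome 6, 109 lay in the stretch chr6:26000001-29000000. Leaving them out while keeping the genes of that stretch would place chromosome 6 after 5 and 10 in this order. As a share of all merged regions of a chromosome, shared regions made up 5.07% on 19, 4.46% on 6 and 4.41% on 11. That share was 3.65% on 10 and 3.52% on 5, below the 3.90% of all chromosomes together.

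The share of ASXL1 and O-GlcNAc regions that also held FOXK1 differed between chromosomes. It was 38.9% on chromosome 6 (interval 36.5 to 41.4), 36.8% on 5 (34.1 to 39.6) and 34.6% on 4 (31.1 to 38.2). It was 23.9% on chromosome 19 (21.5 to 26.4), 22.7% on 21 (18.1 to 28.0) and 22.6% on 22 (18.9 to 26.9). The intervals of chromosomes 6 and 19 were far apart, and those of 4 and 5 overlapped. Chromosome 6 also had the most FOXK1 peaks per Mb, 11.4. Chromosomes 1 and 10 came next, with 10.6 and 10.5 per Mb and FOXK1 shares of 31.2% and 34.3%, and chromosome 4 was near the lower end with 4.55. Across the 23 chromosomes, rho between this density and the share was 0.0919. With every score at least 100, chromosome 6 was at 33.8% and chromosome 19 at 17.8%. Without the stretch chr6:26000001-29000000 and at all scores, chromosome 6 was at 36.4% (33.8 to 39.1), below the 36.8% of chromosome 5.

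**Figure D5:**
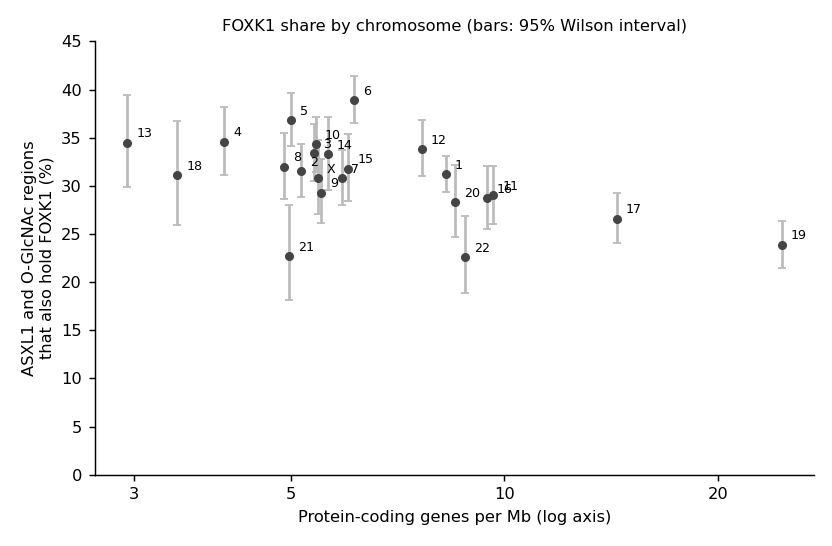
Share of ASXL1 and O-GlcNAc regions that also hold FOXK1 (vertical axis, percent, with 95% Wilson intervals) against protein-coding genes per Mb (horizontal log axis), 1 point per chromosome. Chromosomes 19 and 17, with the most genes per Mb, have shares of 23.9% and 26.6%, and chromosome 6 has the highest share, 38.9%. Without the stretch chr6:26000001-29000000, which is not drawn apart, chromosome 6 has 36.4%, below the 36.8% of chromosome 5.

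The FOXK1 share was lower on chromosomes with more genes per Mb, with a rho of -0.536 across the 23 chromosomes and -0.495 without chromosome 19. The gap was small when regions were pooled, at 30.5% (29.6 to 31.3) on the 11 chromosomes with the most genes per Mb and 32.8% (31.8 to 33.8) on the other 12. In the top class of ASXL1 score the order was turned round, at 37.4% (35.5 to 39.3) and 36.3% (33.9 to 38.7), with overlapping intervals. The density of ASXL1 and O-GlcNAc regions followed gene density more closely (rho 0.827) than that of shared regions did (rho 0.732). These are descriptions over 23 chromosomes that share the same libraries, and chromosomes 21 and 22 have wide intervals.

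The chromosomes were also compared within the 5 classes of ASXL1 score. In each class the FOXK1 share on chromosome 19 was below that of the other chromosomes together. The values were 11.9% against 21.5% in class 1, 18.2% against 35.2% in class 2, 26.0% against 34.3% in class 3, 24.2% against 31.8% in class 4 and 32.2% against 37.3% in class 5. In class 5 the intervals of 27.0 to 37.8 and 35.8 to 38.9 overlapped. Classes of O-GlcNAc score were not compared between chromosomes. Chromosome 6 lay between 27.2% in class 1 and 46.9% in class 5, above the value of all chromosomes but 19, itself included, in each class. In class 3 the interval for chromosome 6, from 32.3 to 43.9, contained that value of 34.3%.

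Kinds of region differed in how near a shared region lay. Another shared region within 5 kb was found for 10.6% of the shared regions (interval 9.85 to 11.4). Among regions of ASXL1 and O-GlcNAc without FOXK1, 7.68% had a shared region that near (7.25 to 8.15), and among those of ASXL1 and FOXK1 without O-GlcNAc 11.5% had (10.4 to 12.8). For ASXL1 alone the share was 5.40% and for O-GlcNAc alone 3.73%. The median distance to the nearest shared region was 62.3 kb for the shared regions. It was 68.9 kb for ASXL1 and FOXK1, 82.2 kb for ASXL1 and O-GlcNAc, and 164 kb for O-GlcNAc alone, the longest of all kinds. How near other kinds of region lay to their own kind was not measured, so shared regions are not called more clustered than these.

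In windows of 1 Mb, 1886 of 2886 windows with any region held a shared one, with a median of 3. There were 59 windows (2.04%) with 10 or more, and they held 769 shared regions (12.3%). How many of all merged regions lay in these windows was not counted, so the 12.3% has no background. The 3 fullest were neighbours, together chr6:26000001-29000000, with 35, 39 and 35 shared regions among 178, 181 and 199 regions of any kind. Windows were picked for their number of shared regions, so the shares of shared regions and of FOXK1 in them partly restate that choice. This stretch of the short arm is known for the main cluster of histone genes and for many tRNA genes. RefSeq places 155 of 465 tRNA genes and 55 of 80 genes with histone symbols on chromosome 6. No gene annotation in hg19 coordinates was used, so single regions were not assigned to genes.

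The chromosome 6 stretch had a higher median ASXL1 score and FOXK1 share than the rest of its chromosome, with a similar median FOXK1 score. Its 109 shared regions had a median ASXL1 score of 1497 (range 50.46 to 3100), against 219 for the 471 shared regions elsewhere on chromosome 6. The median FOXK1 score was 124 in the stretch and 120 elsewhere on the chromosome, and the median O-GlcNAc score was 209 and 134. FOXK1 was present in 55.3% of its 197 ASXL1 and O-GlcNAc regions (interval 48.4 to 62.1), against 36.4% on the rest of chromosome 6 (33.8 to 39.1). Shared regions made up 19.5% of its 558 regions and 3.78% of the 12451 elsewhere on that chromosome. The stretch was picked for its number of shared regions, so both of its shares partly restate that choice.

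Next came chr5:124000001-125000000 with 24 shared regions and chr1:145000001-146000000 with 18. In the chromosome 5 window ASXL1 had a median score of 415, FOXK1 of 208 and O-GlcNAc of 145. FOXK1 was present in 64.9% of its 37 ASXL1 and O-GlcNAc regions (interval 48.8 to 78.2). The window was dense in peaks of all kinds, with 186 regions, among them 70 of O-GlcNAc alone and 27 of FOXK1 alone. In the chromosome 1 window the medians were 200, 215 and 205, and 50% of 36 regions held FOXK1 (34.5 to 65.5). The FOXK1 medians of both windows were above the 124 of the chromosome 6 stretch, and the ASXL1 medians were below its 1497.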

How the data were processed

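ChIP-seq peak lists of 3 libraries, ASXL1, FOXK1 and O-GlcNAc, were analysed, and the 2 input libraries were not analysed here. Bowtie2 2.0.0, MACS 1.4 and hg19 are named in the submitters' processing notes; settings and read filters are not given in the sources used here. Fixation (1% formaldehyde, 10 min) and library amplification (18 PCR cycles, no molecular identifiers named) are per the labels' protocols. Each deposited list was made by the authors from 1 library and gives a score per peak. The score starts at 50, and no source used here states its scale. Files count starts from 0; positions are printed from 1.

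Regions were merged and compared with Python 3.11.15 and pandas 2.3.3, after the merging was checked on simulated lists. The highest score per list and region was used. Peak centres are midpoints of the highest-scoring peaks. Shares have 95% Wilson intervals and medians of distance have binomial intervals. No test was run, since regions of 1 library are not replicates. Chromosome lengths were the highest peak end. Gene counts per chromosome are from RefSeq GRCh38.p14, whose coordinates were not used because the build differs. For the same reason the planned start site, gene list, promoter and motif results were not run.

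Named regions were the 10 with the lowest worst score rank over the lists, for each list the 3 ranked farthest above their other ranks, the 3 widest, the 3 just inside and 3 just outside the rule, and the 5 fullest windows of 1 Mb. Members, lists and rules were chosen with earlier results of these data known.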

Additional observations from a re-analysis of the deposited data

Results flagged for a closer look

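Chromosome Y and the unplaced contigs were left out of all comparisons above. There, 16 regions held peaks of all 3 lists, more than the 3 that a count of 0 allows, although nothing in the design called for a count of 0. They were 2 regions on Y and 14 on 8 contigs, and made up 3.93% of 407 merged regions, close to the 3.90% on the other chromosomes.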

How the results depend on the processing

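The number of regions held by all 3 lists lay between 5779 and 6290 under the changes of overlap and width, and was 6122 without the chromosome 6 stretch, an alternative chosen after seeing the data. It was 2532 at a score of at least 100 and 1781 when each list was cut to its 10000 strongest peaks, settings that shorten the lists. The share of ASXL1 peaks in these regions was 6.95% at an overlap of 50%, 7.27% with a base common to all lists, 8.91% at a score of 100, 18.6% with 10000 peaks, 6.94% without the widest 1% of peaks and 6.98% in 400 bp windows. In the same order FOXK1 had 28.6%, 28.9%, 35.4%, 18.1%, 27.7% and 28.6%, and O-GlcNAc had 8.49%, 8.78%, 16.2%, 18.7%, 8.27% and 8.28%. The median distance of ASXL1 and FOXK1 centres was 89 bp at a score of 100, 95 bp with 10000 peaks, 81 bp without the widest peaks, 82 bp in 400 bp windows and 74.5 bp in regions with 1 peak of each list. For ASXL1 and O-GlcNAc it was 92.5 bp with 10000 peaks, 78 bp without the widest peaks and 71.5 bp with 1 peak of each. For FOXK1 and O-GlcNAc it was 76.5 bp at an overlap of 50%, 83 bp with 10000 peaks, 76 bp without the widest peaks and 70 bp with 1 peak of each. The FOXK1 share of ASXL1 and O-GlcNAc regions lay between 23.9% and 31.8% over 8 alternatives, and chromosome 6 was above chromosome 19 in each. The alternatives for start sites, genes, gene lists and motifs were not run. No paired analysis was possible because the antibodies had a single library apiece, which also leaves none to drop. Depth is unknown, so a missing peak does not show that a target was absent.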
